A study of Oryza sativa with 18 samples.

Results

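The mRNAs described here encode the carbon-fixing machinery of the rice chloroplast, measured in leaves with and without salt. The set holds 10 nuclear genes chosen by their RAP identifiers, out of 37863 genes in the count table. They are the Rubisco small subunits Os12g0274700, Os12g0291100 and Os12g0292400, Rubisco activase (Os11g0707000), the subunits GAPA (Os04g0459500) and GAPB (Os03g0129300) of chloroplast glyceraldehyde phosphate dehydrogenase, aldolase (Os11g0171300), chloroplast fructose bisphosphatase (FBPase, Os03g0267300), sedoheptulose bisphosphatase (SBPase, Os04g0234600) and phosphoribulokinase (Os02g0698000). All 10 passed the filter on low counts, which left 25957 genes to test. The pairing of identifier and name comes with the gene set, which the deposited table and the reference at hand do not pair.

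In the Calvin cycle, Rubisco joins CO2 to a sugar bisphosphate in the chloroplast stroma, the products are reduced to triose phosphate with the reducing power and ATP of the light reactions, and most of that triose phosphate is turned back into the CO2 acceptor. The large subunit of Rubisco is encoded in the chloroplast genome, which poly-A selection largely leaves out, while the small subunits and the other enzymes are encoded in the nucleus. Their mRNAs are among the abundant ones of a green leaf and are known to follow light, time of day, sugar supply and leaf age.

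The libraries fell into 6 groups of 3. Leaves of an FKBP57 knockout line, of an FKBP73 knockout line and of the wild-type cultivar Ningjing 4 were each taken after 4 hours in 150 mM NaCl and from plants in normal nutrient solution. FKBP57 and FKBP73 are FK506-binding proteins, a class of peptidyl-prolyl isomerases, and the series title ties them to salt tolerance. The labels give neither the time of harvest of the control plants, nor plant age, nor the number of independent knockout lines, so salt cannot be told apart from harvest time or handling. Transcripts of the knocked-out genes were not analysed here, and no check of either knockout at its target was made.

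Library totals ran from 27601098 to 39894394 counts, and each of the 10 genes had between 4066 and 951611 counts in every library, so counting error was small beside the spread between replicates. Averaged over genotypes, the 4 identifiers of a list of salt response markers were all called higher under salt, against 20.3% of all tested genes. Their median log2 fold change was 4.12. Called higher were 3 of the 4 in the FKBP57 knockout, 3 in the FKBP73 knockout and 4 in wild type. The shares of all genes were 4.64%, 8.88% and 13.6% in the same order. The list was chosen with earlier results of these data known. A list of 10 light reaction genes summed to 2049 to 7219 CPM in salt libraries and 2844 to 17310.1 CPM in control libraries, against 3.93 to 9.17 and 3.47 to 18.7 CPM for 3 root markers, of which 1 or 2 were at 0 counts in each library. FKBP57 knockout control replicates 2 and 3 stood at opposite ends of the control libraries for the 10 genes of the set. Several results that rest on them, though not all, are also given without 1 of them. In these whole leaves, fewer green cells and less of an mRNA per cell cannot be told apart.

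Salt libraries held less mRNA of the Calvin cycle set. Levels are given as CPM, counts scaled to library totals after TMM. Averaged over the 3 genotypes, 7 of the 10 genes fell under salt, where 22.5% of all tested genes were called lower at an adjusted p under 0.05. The 7 were the small subunits Os12g0274700 and Os12g0292400, activase, GAPA, GAPB, FBPase and phosphoribulokinase. Fold changes of all 10 genes were negative, from -1.60 for GAPA to -0.65 for SBPase on the log2 scale, with a median of -1.07 against -0.07 over all tested genes. The calls of Os12g0292400, activase, GAPA, GAPB and phosphoribulokinase held in each of the 18 fits that left out 1 library. They also held under every other setting tried. The FBPase call held in the same 18 fits and missed under 1 other setting, and that of Os12g0274700 held in 6 of the 18. Without FKBP57 knockout control replicate 2 the median of the 10 was -1.22, and without replicate 3 it was -0.91. GAPA was at -1.76 and -1.42 in the same fits, activase at -1.44 and -1.10, and FBPase at -1.13 and -0.85.

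**Figure D1:**
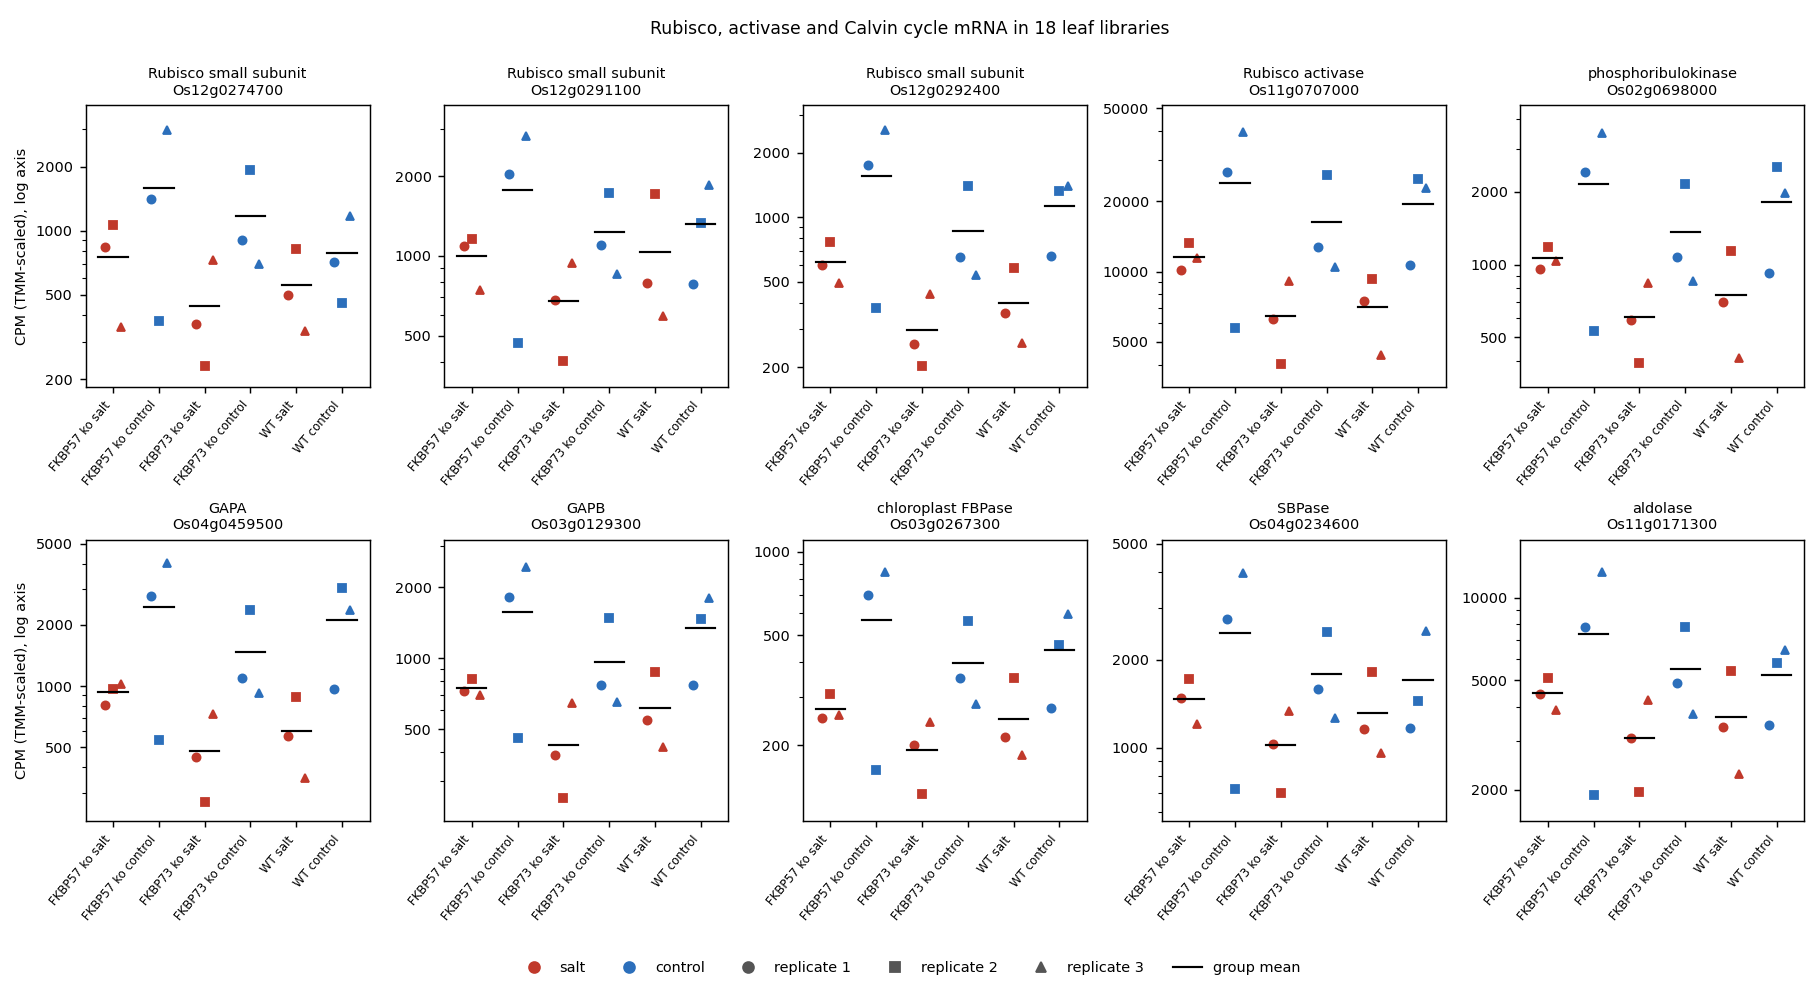
CPM of each of the 10 genes in the 18 libraries on a log axis, with salt libraries in red, control libraries in blue, marker shapes for replicate numbers and a black bar for the group mean. FKBP57 knockout control replicate 3 is the highest library in all 10 panels, and FKBP57 knockout control replicate 2 is the lowest control library in all 10.

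The Rubisco small subunit binds the catalytic large subunit in the stroma and is made from several near-identical nuclear genes. For Os12g0292400, the FKBP57 knockout had 597, 766 and 494 CPM under salt, against 1754, 379 and 2558 CPM in control. The FKBP73 knockout had 256, 203 and 438 CPM under salt, against 654, 1397 and 535 CPM in control. Wild type had 356, 579 and 260.0 CPM under salt, against 657, 1328 and 1399.6 CPM in control. All salt libraries lay below all control libraries in the FKBP73 knockout and in wild type, and in the FKBP57 knockout control replicate 2 lay below the 3 salt libraries. The average log2 fold change of Os12g0292400 was -1.46 (SE 0.33, adjusted p = 0.0026 by edgeR's quasi-likelihood test).

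Os12g0291100, a second small subunit copy, had 1089, 1161 and 744 CPM in FKBP57 knockout salt libraries, against 2029, 472 and 2836 CPM in control. Its FKBP73 knockout values were 681, 403 and 938 CPM under salt, against 1099, 1731 and 853 CPM in control. Its wild-type values were 792, 1718 and 593 CPM under salt, against 783, 1331 and 1853 CPM in control. Salt and control libraries of Os12g0291100 overlapped in every genotype, and the average change of -0.68 (SE 0.32, 95% interval -1.37 to 0.0018) did not pass the test (adjusted p = 0.099). It passed without FKBP57 knockout control replicate 2 (adjusted p = 0.015) or without wild-type salt replicate 2 (adjusted p = 0.041).

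The copy Os12g0274700 averaged 750.2 ± 363 CPM under salt and 1594 ± 1319 CPM in control in the FKBP57 knockout (SD, n = 3 each). Its mean was 441 ± 258 CPM under salt and 1177 ± 657 CPM in control in the FKBP73 knockout, and 553 ± 247 CPM under salt and 784 ± 367 CPM in control in wild type. The groups overlapped in all 3 genotypes. On average it fell by 50.1% (log2 SE 0.38, log2 95% interval -1.82 to -0.18, adjusted p = 0.047). That call passed in 6 of 18 fits that left out 1 library, those without replicate 2 of wild-type control, FKBP57 knockout control, wild-type salt or FKBP57 knockout salt, or without replicate 3 of FKBP73 knockout control or salt, and in the other 12 the adjusted p ran from 0.053 to 0.11. Without wild-type control replicate 3 and FKBP57 knockout control and salt replicates 3 the average log2 change of Os12g0274700 was -0.46 (adjusted p = 0.29). Since reads of near-identical copies may have been split among these rows, the 3 rows were also summed before the fit. The summed small subunit mRNA fell by 0.99 on the log2 scale (SE 0.34, adjusted p = 0.029).

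Rubisco activase is the ATP-driven chaperone that clears sugar phosphates from Rubisco's active sites. It had the highest count of the 10 rows in each library, between 40.6% and 58.2% of their counts, a share of reads that is not corrected for transcript length. In the FKBP57 knockout it had 10152, 13251 and 11394 CPM under salt, against 26801, 5752 and 39580.5 CPM in control. FKBP73 knockout leaves had 6299, 4024 and 9126 CPM under salt, against 12711, 25807 and 10488 CPM in control. In wild type it had 7506, 9287 and 4392 CPM under salt, against 10711, 24843 and 22725 CPM in control. The salt libraries were lower than every control library in the FKBP73 knockout and wild type, and again FKBP57 knockout control replicate 2 was the exception. Activase fell to 0.411 of its control level on average (log2 -1.28, SE 0.34, adjusted p = 0.0078).

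GAPA and GAPB form the NADPH-using dehydrogenase of the reduction step. GAPA had the largest fold change of the set. Its FKBP57 knockout libraries had 804, 973 and 1020.3 CPM under salt, against 2759, 542 and 4009.8 CPM in control. Its FKBP73 knockout libraries had 447, 271 and 729 CPM under salt, against 1096, 2375 and 927 CPM in control. Wild-type libraries had 568, 889 and 352 CPM of GAPA under salt, against 964, 3032 and 2359 CPM in control. Salt and control did not overlap in the FKBP73 knockout or in wild type, and the average fall was 3.03-fold (log2 -1.60, SE 0.36, adjusted p = 0.0026). GAPB averaged 747 ± 62.3 CPM under salt and 1571 ± 1012 CPM in control in the FKBP57 knockout (SD, n = 3 each). Its means were 428 ± 198 CPM under salt and 965 ± 448 CPM in control in the FKBP73 knockout, and 612 ± 232 CPM under salt and 1346 ± 527 CPM in control in wild type. GAPB fell less than GAPA, by 1.13 on the log2 scale (SE 0.30, adjusted p = 0.0081).

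Among the enzymes that rebuild the acceptor, FBPase removes a phosphate from fructose bisphosphate. In FKBP57 knockout leaves FBPase had 251, 307 and 258 CPM under salt, against 696, 163 and 847 CPM in control. In FKBP73 knockout leaves it had 200.1, 133 and 242 CPM under salt, against 349, 563 and 282 CPM in control. In wild-type leaves it had 215, 350.5 and 184 CPM under salt, against 274, 461 and 595 CPM in control. Only the FKBP73 knockout showed salt and control libraries of FBPase that did not overlap. The average change was -0.98 (SE 0.27, adjusted p = 0.0098), and the adjusted p was 0.052 when wild-type control replicate 3 and FKBP57 knockout control and salt replicates 3 were left out.

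SBPase does the same for sedoheptulose bisphosphate and is specific to this cycle. It had 1475, 1720.4 and 1205 CPM in FKBP57 knockout salt libraries, against 2762, 718 and 3955 CPM in control. The FKBP73 knockout had 1029, 699 and 1335 CPM of SBPase under salt, against 1587, 2497 and 1263 CPM in control. Wild type had 1154, 1817 and 958 CPM under salt, against 1168, 1445 and 2507 CPM in control. SBPase overlapped between treatments in every genotype, and its average change of -0.65 (SE 0.28, 95% interval -1.25 to -0.043) missed the threshold after adjustment (adjusted p = 0.078). DESeq2 called it (adjusted p = 0.037), and so did edgeR without FKBP57 knockout control replicate 2 (adjusted p = 0.0064).

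Aldolase, which makes the sugar bisphosphates that FBPase and SBPase use, did not pass either. It averaged 4487 ± 601 CPM under salt and 7391 ± 5276 CPM in control in the FKBP57 knockout, 3096 ± 1139 CPM under salt and 5502 ± 2095 CPM in control in the FKBP73 knockout, and 3688 ± 1579 CPM under salt and 5239.8 ± 1594 CPM in control in wild type (SD, n = 3 each). Its average change was -0.69 (SE 0.31, 95% interval -1.34 to -0.027, adjusted p = 0.086). DESeq2 gave an adjusted p of 0.038 for it, and edgeR without FKBP57 knockout control replicate 2 gave 0.0087. Phosphoribulokinase, which makes the acceptor in the last step, averaged 1059.6 ± 113 CPM under salt and 2146 ± 1499 CPM in control in the FKBP57 knockout. Its FKBP73 knockout means were 606 ± 224 CPM under salt and 1360.2 ± 694 CPM in control, and its wild-type means were 748 ± 364 CPM under salt and 1813 ± 816 CPM in control. Phosphoribulokinase fell by 1.15 on the log2 scale (SE 0.33, adjusted p = 0.012).

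Within single genotypes the means of 3 salt and 3 control libraries were compared, with the spread estimated from all 18 libraries. In this fit edgeR's test passed for 1 gene. In wild type GAPA fell (log2 -1.81, SE 0.63, adjusted p = 0.048), 1 of 10 genes where 10.9% of all tested genes were called lower. Fitted to only the groups compared, edgeR called 2 genes lower in wild type, where it called 8.88% of all genes lower. The GAPA call lay at the threshold. DESeq2 called 3 genes, GAPA among them, where it called 16% of all tested genes lower, and edgeR kept GAPA in 5 of 18 fits that left out 1 library. Those were the fits without wild-type control replicate 1, FKBP57 knockout control replicate 2 or 3, FKBP73 knockout control replicate 2 or FKBP73 knockout salt replicate 3, and in the other 13 the adjusted p ran from 0.052 to 0.17, highest without wild-type salt replicate 3. Without wild-type control replicate 3 and FKBP57 knockout control and salt replicates 3 the adjusted p of GAPA was 0.062. The other 9 genes had wild-type log2 fold changes between -1.50 for Os12g0292400 and -0.35 for Os12g0291100, and the median of the 10 was -0.98 against -0.06 over all genes. The 95% intervals of SBPase (-1.43 to 0.66) and Os12g0291100 (-1.54 to 0.83) in wild type take in both a fall of more than 1 and a rise. These wild-type values moved with single libraries. Without wild-type control replicate 3 the wild-type change was -0.070 for Os12g0291100, -0.031 for SBPase and -0.12 for Os12g0274700. Without wild-type salt replicate 2 it was -0.93 for Os12g0291100, -0.69 for SBPase and -0.90 for Os12g0274700. Aldolase in wild type was at -0.26 without salt replicate 3 and at -0.89 without salt replicate 2.

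In the FKBP57 knockout none of the 10 genes passed edgeR's test, with 1.68% of all genes called lower. An unadjusted p under 0.05 was found for 3 of the 10, against 21.4% of all genes in either direction, and DESeq2 called 0, with 4.68% of all genes lower. All 10 fold changes were negative, between -1.39 for GAPA and -0.72 for aldolase, with a median of -1.06 against -0.10 over all genes. Without control replicate 3 all 10 lay nearer 0, from -0.81 for GAPA to -0.11 for aldolase (median -0.47), and without control replicate 2 all 10 lay farther from 0, from -1.83 for GAPA to -1.14 for aldolase (median -1.48). In the FKBP73 knockout edgeR's fit to all 18 libraries called 0 of the 10 genes, with 5.46% of all genes called lower. An unadjusted p under 0.05 was found for 5, against 28.9% of all genes in either direction. Fitted to only the groups compared, edgeR called 3 lower, with 14.4% of all genes lower, and DESeq2 called 2, with 8.97% of all genes lower. There the fold changes lay between -1.60 for GAPA and -0.80 for SBPase, with a median of -1.17 against -0.03 over all genes. Without control replicate 2 they lay between -1.07 for GAPA and -0.48 for SBPase (median -0.72), and without salt replicate 3 between -2.03 for GAPA and -1.05 for SBPase (median -1.54).

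Salt libraries lay wholly below control libraries for 3 of 10 genes in wild type, namely Os12g0292400, activase and GAPA, where 17.2% of all tested genes did so. Among FKBP73 knockout libraries 6 of 10 did, the same 3 with GAPB, FBPase and phosphoribulokinase, against 21.7% of all genes. In the FKBP57 knockout it was 0 of 10, against 6.79% of all genes. Control replicates 1 and 3 of that genotype lay above its 3 salt libraries for all 10 genes, and control replicate 2 lay below the 3 salt libraries for 9. The share of all genes placed this way was not computed. The split was not particular to the set. Light reaction genes summed to 12802, 2844 and 17310.1 CPM in these controls and 5146.5 to 6507 CPM under salt. Without FKBP57 knockout control replicate 2 the number of genes called lower was 4 in the FKBP57 knockout, 5 in the FKBP73 knockout, 5 in wild type and 10 in the average, all groups sharing 1 estimate of the spread. In the same fit 5.38% of all genes were called lower in the FKBP57 knockout, 9.01% in the FKBP73 knockout, 16.6% in wild type and 23.1% in the average.

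**Figure D2:**
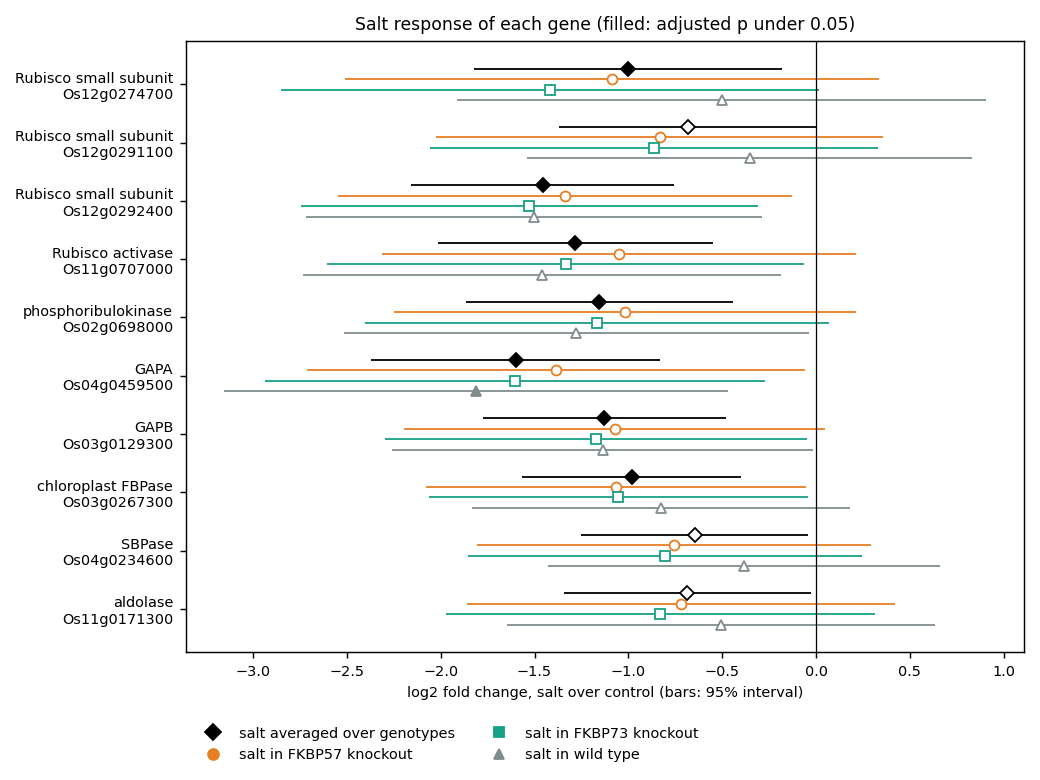
Log2 fold change of each gene, salt over control, with 95% intervals, in each genotype and averaged over the 3 genotypes, filled where the adjusted p was under 0.05. All points lie below 0, the averaged values from -1.60 for GAPA to -0.65 for SBPase, and the intervals of single genotypes are wide.

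The order of the replicates was the same for all 10 genes in 4 of the 6 groups. The share of all genes with these orders was not computed. Since the 10 genes largely rose and fell together, counts among them do not rest on 10 independent genes. All 10 were highest in replicate 3 and lowest in replicate 2 of the FKBP57 knockout controls, by 5.18-fold for FBPase to 7.96-fold for Os12g0274700. Likewise all 10 were highest in replicate 2 and lowest in replicate 3 of the FKBP73 knockout controls and of wild-type salt, and highest in replicate 3 and lowest in replicate 2 of FKBP73 knockout salt. In FKBP57 knockout salt 9 genes were highest in replicate 2 and 1 in replicate 3, while 6 were lowest in replicate 3 and 4 in replicate 1. In wild-type control 7 were highest in replicate 3 and 3 in replicate 2, while 9 were lowest in replicate 1 and 1 in replicate 2.

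The FKBP57 knockout salt libraries had 2.14%, 2.57% and 2.28% of their counts on the set, against 4.64%, 1.25% and 5.85% in control, a difference of means of -1.59 percentage points. The FKBP73 knockout had 1.36%, 0.925% and 1.95% under salt, against 2.56%, 4.63% and 2.16% in control, a difference of -1.70 points. Wild type had 1.59%, 2.19% and 1.03% under salt, against 2.25%, 4.35% and 3.96% in control, a difference of -1.92 points. Salt and control shares overlapped in the FKBP57 knockout and did not in the FKBP73 knockout or wild type. In the FKBP57 knockout the difference was -2.92 points without control replicate 2 and -0.617 points without control replicate 3. In the FKBP73 knockout it was -0.945 points without control replicate 2 and -2.18 points without control replicate 3. Leaving out 1 wild-type library gave -2.55 to -1.50 points in wild type.

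**Figure D3:**
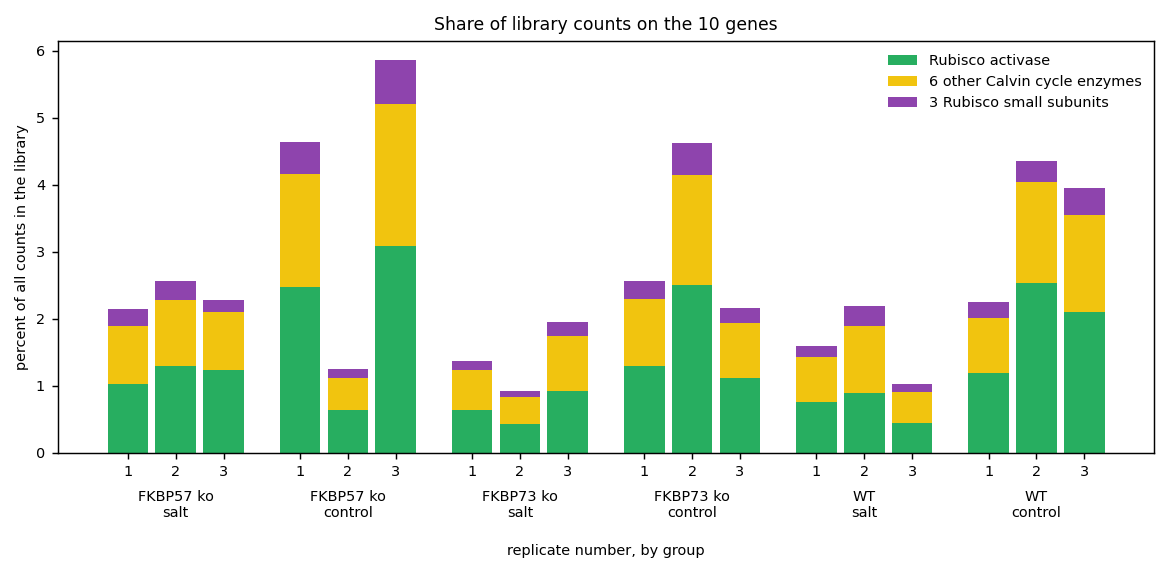
Percent of all counts in each library that fell on activase, on the 3 small subunits and on the 6 other genes, stacked, by group and replicate number. FKBP57 knockout control replicate 2 stands at 1.25%, below the salt libraries of its genotype, and replicate 3 at 5.85%.

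Other measured genes moved with this spread. In FKBP57 knockout control replicates 1, 2 and 3 the summed level of the 10 light reaction genes was 12802, 2844 and 17310.1 CPM, and that of 9 circadian clock genes was 2958, 1371 and 4768 CPM, both lowest in replicate 2 and highest in replicate 3. The 7 listed genes of cytosolic counterparts of Calvin cycle enzymes summed to 2294 to 2468 CPM in the same 3 libraries. Root markers there summed to 18.7, 3.47 and 10.7 CPM, and 4 chlorophyll breakdown genes to 511, 340.4 and 750.2 CPM. Over all libraries the 3 secondary wall genes summed to 87.0 to 275 CPM under salt and 191 to 451 CPM in control. The part of harvest time, tissue make-up or leaf age in the results was not tested.

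Ratios of counts within a library do not depend on library scaling and were compared between the 9 salt and 9 control libraries. Pairs were chosen after their values had been seen, so each p only describes these libraries and is no evidence beyond them. The adjustment over 6 ratios leaves out the other pairs that could have been chosen. The ratios are of counts not corrected for length. FBPase fell more than SBPase. The FBPase to SBPase ratio was 0.170, 0.178 and 0.214 under salt and 0.252, 0.228 and 0.214 in control in the FKBP57 knockout. It was 0.194, 0.190 and 0.182 under salt and 0.220, 0.225 and 0.223 in control in the FKBP73 knockout, and 0.186, 0.193 and 0.192 under salt and 0.235, 0.319 and 0.237 in control in wild type. No salt library reached the lowest control library of any genotype. Averaged over genotypes the difference was -0.33 on the log2 scale, in a two-sided exact permutation test that permuted treatment within genotype (p = 0.00025, the smallest that its 8000 permutations can give, 0.0015 adjusted over 6 ratios). Within genotypes it was -0.31 in the FKBP57 knockout, -0.24 in the FKBP73 knockout and -0.45 in wild type, each with an exact p of 0.1, the smallest that 3 against 3 libraries allow.

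The GAPA to GAPB ratio was 1.11, 1.19 and 1.46 in FKBP57 knockout salt libraries and 1.52, 1.18 and 1.65 in the controls. In the FKBP73 knockout it was 1.16, 1.07 and 1.13 under salt and 1.43, 1.61 and 1.42 in control, and in wild type 1.04, 1.02 and 0.840 under salt and 1.25, 2.07 and 1.31 in control. The average difference was -0.42 (exact permutation p = 0.0015, adjusted p = 0.00225). Groups did not overlap in the FKBP73 knockout (-0.41) or wild type (-0.64), and did in the FKBP57 knockout (-0.20, exact p = 0.3). There control replicate 2 was the lowest control library and salt replicate 3 the highest salt library. The average difference was -0.46 without FKBP57 knockout control replicate 2. It was -0.34, the value nearest 0 in the fits that left out 1 library, without wild-type control replicate 2.

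The make-up of small subunit mRNA also differed between treatments. Relative to the sum of the other 2 copies, Os12g0291100 was at 0.759, 0.635 and 0.880 under salt and 0.641, 0.624 and 0.511 in control in the FKBP57 knockout. It was at 1.10, 0.930 and 0.804 under salt and 0.705, 0.521 and 0.690 in control in the FKBP73 knockout, and at 0.925, 1.23 and 0.993 under salt and 0.571, 0.747 and 0.718 in control in wild type. This ratio was higher under salt, by 0.51 on the log2 scale on average (exact permutation p = 5e-04, adjusted p = 0.0015). The same ratio for Os12g0292400 was lower, by a log2 difference of -0.58 (exact permutation p = 0.001, adjusted p = 0.002). It was -0.35 in the FKBP57 knockout (exact p = 0.3), -0.35 in the FKBP73 knockout and -1.03 in wild type. Wild-type control replicate 2 was at 0.744, against 0.438 and 0.461 in control replicates 1 and 3, and without it the average was -0.50. For Os12g0274700 the average was -0.03 (exact permutation p = 0.89), with -0.08 in the FKBP57 knockout, -0.34 in the FKBP73 knockout and 0.33 in wild type. These ratios share counts and are not independent, and reads of near-identical copies may have been assigned unequally.

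Activase relative to the summed small subunits gave an average difference of -0.24 (exact permutation p = 0.14, adjusted p = 0.16). In wild type the ratio was 4.56, 2.98 and 3.69 under salt and 4.97, 7.98 and 5.13 in control. In the FKBP57 knockout it was 4.02, 4.43 and 7.17 under salt and 5.16, 4.69 and 4.72 in control. In the FKBP73 knockout it was 4.84, 4.81 and 4.33 under salt and 4.79, 5.11 and 5.02 in control. FKBP57 knockout salt replicate 3 had the highest salt value, and without it the average was -0.32 (adjusted p = 0.0011 by the exact permutation test). Without wild-type control replicate 2 it was -0.16 (adjusted p = 0.23), and over the 18 fits that left out 1 library the adjusted p of this ratio ran from 0.0011 to 0.31.

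**Figure D4:**
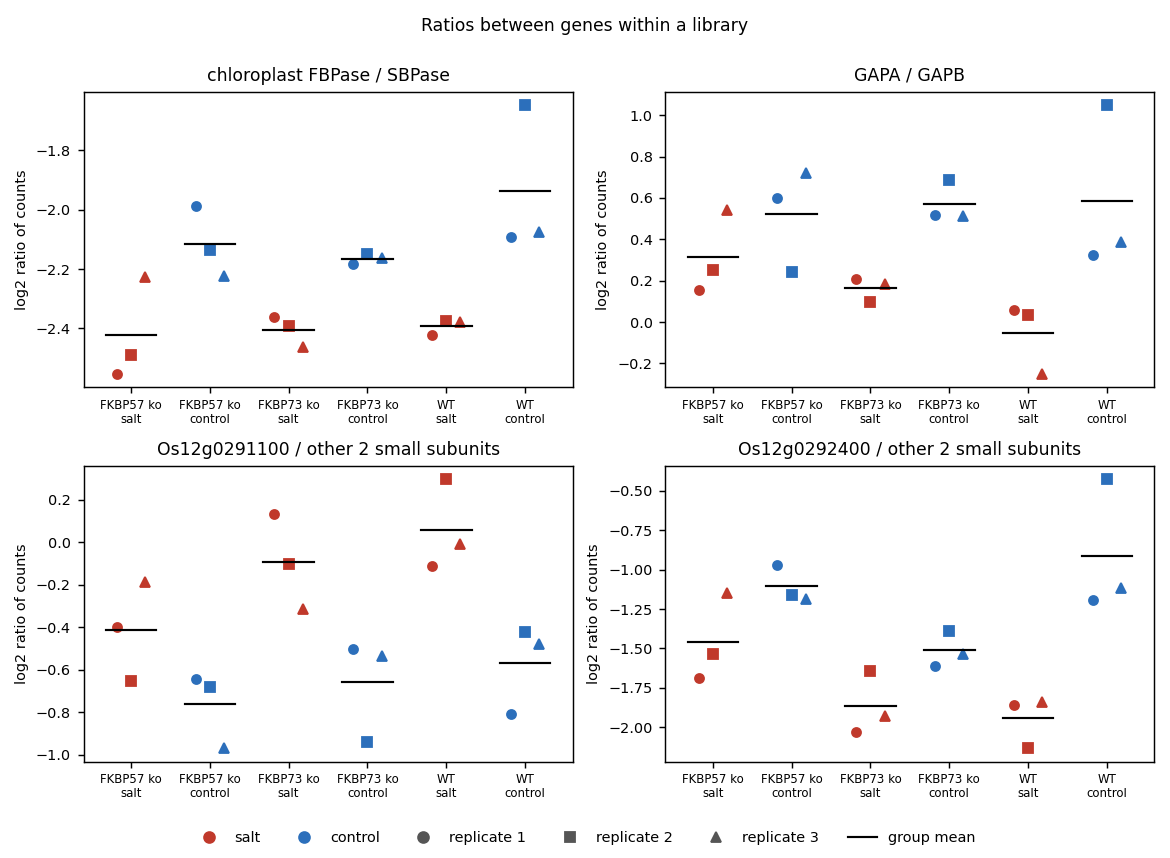
Log2 ratio of counts in each of the 18 libraries, with salt libraries in red, control libraries in blue and a bar at the group mean. Drawn are the 4 of the 6 chosen ratios with an adjusted p under 0.05 by the exact permutation test. As linear ratios, the 9 salt libraries of FBPase over SBPase lie between 0.170 and 0.214 and the 9 control libraries between 0.214 and 0.319, without overlap before rounding.

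No difference between a knockout and wild type passed the test for these genes. In control solution edgeR called 0 of the 10 genes in the FKBP57 knockout against wild type, with 0.204% of all genes called in either direction, and under salt it called 0, with 0.304% of all genes. In the FKBP73 knockout it called 0 of 10 in control and 0 of 10 under salt, with 0% of all genes called in both. DESeq2 also called 0 of the 10 in these 4 comparisons, and 0 had an unadjusted p under 0.05.

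Knockout levels were 24044 ± 17082 CPM of activase in FKBP57 knockout controls and 19426 ± 7622 CPM in wild-type controls (SD, n = 3 each). The log2 fold changes of the FKBP57 knockout over wild type in control were between 0.20 for GAPA and 1.02 for Os12g0274700, with a median of 0.39 against 0.06 over all genes. For 8 of the 10 the sign turned in at least 1 fit that left out a library. Without FKBP57 knockout control replicate 3, GAPA was at -0.38, activase at -0.27 and GAPB at -0.25. The interval of activase, -0.94 to 1.56, leaves room for a change of more than 1 upward.

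Under salt the FKBP57 knockout had 10152, 13251 and 11394 CPM of activase, against 7506, 9287 and 4392 CPM in wild type. All 3 knockout libraries lay above all 3 wild-type libraries for 1 of the 10 genes, activase. That count is near the share of all tested genes that did so, 9.47%, and does not set activase apart. The log2 fold change of activase was 0.72 (SE 0.59, 95% interval -0.54 to 1.97, adjusted p = 0.70), and the 10 genes ranged from -0.052 for Os12g0291100 to 0.72 for activase.

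For the FKBP73 knockout the log2 fold changes over wild type lay between -0.53 for GAPA and 0.59 for Os12g0274700 in control, and between -0.62 and -0.12 under salt, where all 10 were negative and 5 turned positive without wild-type salt replicate 2. Medians were -0.20 and -0.34, against -0.03 and -0.02 over all genes. Both knockouts were set against the same wild-type libraries.

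Whether salt acted differently in the knockouts was tested as an interaction. No gene of the set passed for the FKBP57 knockout or for the FKBP73 knockout by edgeR, with 0% of all genes called in both. DESeq2 called 0 of the set, and its share over all genes is not given here. By edgeR 0 of the set had an unadjusted p under 0.05, against 6.21% of all genes for the FKBP57 knockout and 2.99% for the FKBP73 knockout. The difference of the log2 responses, FKBP57 knockout minus wild type, ran from -0.58 for Os12g0274700 to 0.43 for GAPA. That of the FKBP73 knockout minus wild type ran from -0.91 for Os12g0274700 to 0.21 for GAPA. For GAPA the 95% intervals were -1.42 to 2.27 in the FKBP57 knockout and -1.63 to 2.05 in the FKBP73 knockout, so differences of more than 1 in either direction lie within both intervals.

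Further genes of the pathway were followed by 10 identifiers listed as other Calvin cycle genes from general knowledge and not annotated in the files. Averaged over genotypes, 6 of these fell under salt, 1 rose and 3 did not pass, with a median log2 fold change of -0.83. Os06g0664200 fell by 1.28 on the log2 scale and Os04g0266900 was higher by 1.15. Of 10 light reaction genes 6 fell and 0 rose, with a median of -1.18, and of 5 photorespiration genes 1 fell and 0 rose, with a median of -0.53. Of 7 cytosolic counterparts 2 rose and 2 fell, with a median of -0.05, where 20.3% of all genes were called higher and 22.5% lower.

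In the average over genotypes 3 of 4 chlorophyll breakdown genes were higher under salt and 3 of 3 secondary wall genes lower. Of 9 circadian clock genes 4 were higher and 1 lower, and the 1 root marker that passed the filter was lower. Of all tested genes 20.3% were called higher and 22.5% lower. In the FKBP57 knockout 0 secondary wall genes were called lower (median log2 fold change -0.12), where 1.68% of all genes were. It was 2 in the FKBP73 knockout (-1.20, 5.46% of all genes) and 3 in wild type (-1.36, 10.9%). Chlorophyll breakdown genes called higher were 1, 3 and 3 in the same order, against 4.64%, 8.88% and 13.6% of all genes.

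**Figure D5:**
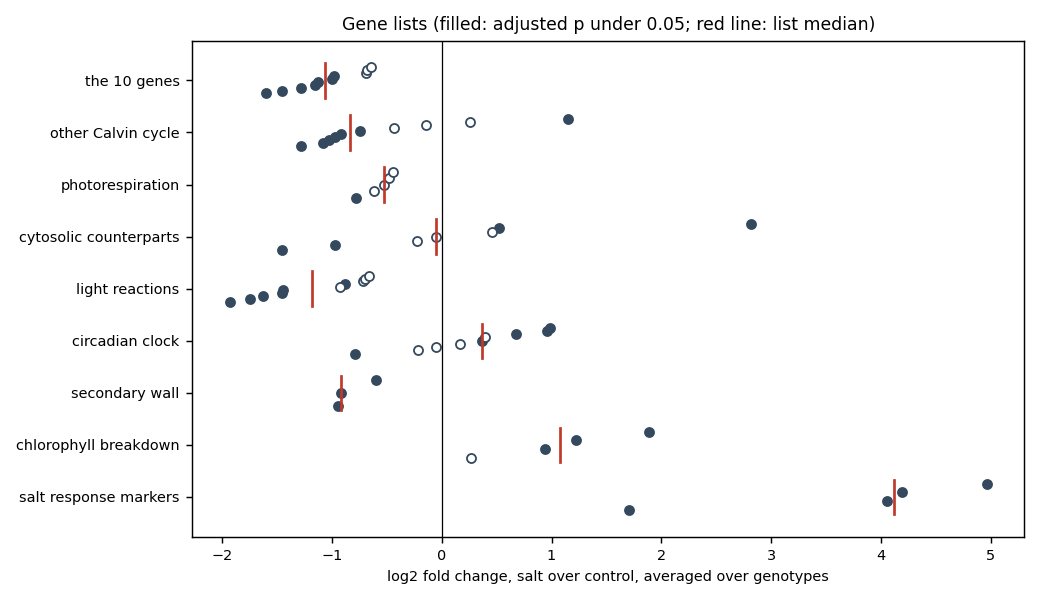
Log2 fold change, salt over control averaged over genotypes, of each gene in the Calvin cycle set and in the other lists, 1 point a gene, filled where the adjusted p was under 0.05, with a red line at the median of each list. The set has a median of -1.07, the light reaction list -1.18 and the cytosolic counterparts -0.05, and root markers are not drawn because 1 of 3 was tested.

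The genes whose levels ran most like the set were sought by Pearson's correlation with the mean of the 10 standardised log2-CPM values over the 18 libraries, among 12896 genes that averaged 10 CPM or more, leaving out all listed genes. Os05g0291700 came first (r = 0.993) and Os08g0104600 second (r = 0.992), as a description over libraries that share depth, groups and treatment. Os05g0291700 had 248, 300.3 and 269.7 CPM in FKBP57 knockout salt libraries, against 720.2, 145 and 984 CPM in control. Os08g0104600 had 1050.0, 1133 and 1007 CPM in FKBP57 knockout salt libraries, against 2819, 607 and 3962 CPM in control. These genes were picked for following the set, so no test of their salt changes is given.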

How the data were processed

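Poly-A mRNA of 18 rice leaf libraries was sequenced on an Illumina NovaSeq, per the labels' protocols. The deposited values are whole-number read counts per gene, in RAP identifiers. Of tools, fastp 0.22.0 and HTSeq 0.9.1 are listed in the submitters' processing notes, with the build IRGSP-1.0. The aligner, gene models and strand setting are not stated by the sources, so reads of overlapping or near-identical genes may not have been told apart. The 3 replicates a group are biological per the series design, without saying whether plants were pooled.

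Counts were tested with edgeR 4.0.16 (limma 3.58.1, R 4.3.3). Genes were kept by filterByExpr (minimum count 10, minimum total 15), libraries were scaled by TMM (factors 0.779 to 1.11), and a quasi-likelihood model of 6 group means was fitted to all 18 libraries. P-values were adjusted over 25957 genes by the Benjamini-Hochberg method, with a threshold of 0.05, in each of 10 comparisons. CPM uses the TMM-scaled totals. Intervals are 95%. DESeq2 1.42.0 and other filters, scalings and library subsets were alternatives. Ratios were compared by an exact permutation test within genotype.

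The genes, the lists and the 3 libraries left out together were chosen with earlier results of these data known, so no p is given for the set as a whole or for the summed share of counts. The genes named are the 10 of the set, and the 2 genes outside all lists most like them. Of other lists, counts are given, with the identifiers at both ends of the Calvin cycle list picked after their values were seen.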

Additional observations from a re-analysis of the deposited data

How the results depend on the processing

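Averaged over genotypes, the number of the 10 genes called lower under salt, with the share of all genes called lower in parentheses, was 9 by DESeq2 (26.3%), 6 with the replicate block (19.4%), 5 without wild-type control replicate 3 and FKBP57 knockout control and salt replicates 3 (25.6%), and 6 of 8 rows with the small subunits summed (22.5%). It was 7 under RLE (23.6%), library size alone (19.9%), no filter (17.2%) or a mean of at least 5 CPM (25.5%), and 6 to 10 when 1 library was left out (18.6% to 24.3%). In wild type it was 3 by DESeq2 (16%), 3 under library size alone (10.4%), 2 at a mean of at least 5 CPM (13.2%), 2 with only the groups compared (8.88%), 0 with the replicate block (8.49%, GAPA adjusted p = 0.076 by edgeR), 0 without those 3 libraries (17.3%) and 0 to 5 when 1 library was left out (3.88% to 16.6%). In the FKBP73 knockout DESeq2 gave 2 (8.97%), only the groups compared 3 (14.4%) and leaving out 1 library 0 to 5 (2.03% to 9.01%), and in the FKBP57 knockout leaving out 1 library gave 0 to 4 (0.387% to 5.38%). Replicate numbers showed no sign of pairing the libraries. Deviations of same-numbered libraries correlated from -0.66 to 0.73, with a median of 0.013. Those of libraries with different numbers correlated from -0.76 to 0.71, with a median of 0.0067. Whether a number marks a shared batch was not tested. With library size alone the all-gene median shifted by 0.12 under salt in the FKBP57 knockout, -0.11 for that knockout over wild type in control and 0.16 for its interaction.

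Without the same 3 libraries the sign turned for SBPase under salt in wild type (0.0071) and Os12g0274700 under salt in the FKBP57 knockout (0.10). It also turned in the FKBP57 knockout over wild type in control for activase (-0.14), phosphoribulokinase (-0.25) and GAPA (-0.29, and -0.014 under library size alone), and under salt for Os12g0291100 (0.11), and in the FKBP73 knockout over wild type in control for Os12g0291100 (0.20) and FBPase (0.10). Leaving out 1 library gave ranges that cross 0 for the FKBP57 knockout over wild type in control of Os12g0291100 (-0.092 to 0.85), Os12g0292400 (-0.094 to 0.90), activase (-0.27 to 0.74), phosphoribulokinase (-0.32 to 0.67), GAPA (-0.38 to 0.64), GAPB (-0.25 to 0.63), FBPase (-0.057 to 0.77) and aldolase (-0.12 to 0.91). Under salt the ranges crossing 0 were Os12g0291100 (-0.33 to 0.53), FBPase (-0.057 to 0.45) and SBPase (-0.018 to 0.47) for the FKBP57 knockout and Os12g0274700 (-0.89 to 0.076), activase (-0.45 to 0.13), phosphoribulokinase (-0.61 to 0.13), GAPA (-0.75 to 0.068) and aldolase (-0.55 to 0.13) for the FKBP73 knockout, and in control Os12g0291100 (-0.44 to 0.18), FBPase (-0.49 to 0.081), SBPase (-0.26 to 0.42) and aldolase (-0.27 to 0.28) for the FKBP73 knockout. None of these knockout values passed the test. The cause was not tested. Activase over the summed small subunits was -0.36 without the 3 libraries (adjusted p = 0.005, exact permutation) and -0.32 to -0.16 when 1 library was left out. Os12g0274700 over the other copies was 0.15 without the 3 libraries and -0.18 to 0.081 when 1 was left out. The other 4 ratios stayed past the threshold in every such fit.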

Other observations

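A wild-type control and an FKBP57 knockout salt library had an unusual make-up within the carbon-fixing set. The small subunit Os12g0274700 held 22.1% of small subunit counts in FKBP57 knockout salt replicate 3 and 14.6% in wild-type control replicate 2, against 26.3% to 38.1% in the other libraries. Activase stood at 7.17 times the summed small subunit counts in FKBP57 knockout salt replicate 3 and at 7.98 times in wild-type control replicate 2. GAPA stood at 1.46 and 2.07 times the GAPB counts in the same libraries, the highest values of the salt and of the control libraries. These libraries were singled out after their values were seen, and no test was made.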
